A study of Canis lupus familiaris with 36 samples.

Results

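The endocrine and pancreatic miRNAs described here are cfa-miR-375, cfa-miR-7, cfa-miR-216a, cfa-miR-216b and cfa-miR-217, 5 of the 453 mature miRNAs in the cardiac count table. They were picked by name, and the table row used for each was selected on its total count over the 12 cardiac libraries. This choice affected miR-7 alone, whose 3 precursor rows had totals of 161552, 161075 and 161385 counts and were at most 1.85% apart in any library. Some of their differences between tumor and control were already known when the names were proposed, so the fold changes and p-values below describe these libraries and are not independent evidence.

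Small RNA was sequenced from formalin-fixed, paraffin-embedded (FFPE) heart tissue of dogs, with 6 libraries of cardiac hemangiosarcoma (HSA), a malignant tumor of endothelial cells diagnosed by histology, and 6 libraries of control heart from dogs whose death had a non-neoplastic cause. RNA came from whole tissue sections, so a tumor library holds any normal tissue in the section as well, and a larger number of cells of a type cannot be told apart from more miRNA per cell. For every cardiac library the title and the treatment field of the labels name opposite conditions, and the title was used, so the other reading would turn the sign of every difference given here. The study describes its dogs with HSA as older than its controls and did not exclude dogs that had received chemotherapy. The labels give no age, therapy, tumor position within the heart or sequencing batch per library, so age and therapy cannot be told apart from the condition. Splenic libraries of the study were left aside and are not analysed here.

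MiR-375 is abundant in the hormone-producing cells of the pancreatic islet and the pituitary. It restrains insulin secretion in the islet, and it is also made by gut and some other epithelia. MiR-7 is likewise rich in islets, pituitary and neurons, and is known as a brake on growth factor receptor signaling. MiR-216a, miR-216b and miR-217 are typical of the enzyme-secreting acinar cells of the pancreas. On the dog assembly UU_Cfam_GSD_1.0, the genes MIR217, MIR216A and MIR216B followed each other without another annotated gene between them, MIR375 lay between CRYBA2 and CFAP65, and MIR7-1, 1 of the 3 miR-7 genes, lay within HNRNPK. The deposited files used CanFam3.1, so positions are not given.

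Each library held between 5544912 and 9336949 counts in control (median 7177953) and between 1656084 and 7254770 counts in HSA (median 3375291), with 1 row per mature miRNA. Levels are given as CPM, the count of a miRNA scaled to a common library size, after TMM normalization, in which a factor per library is set on the bulk of the miRNAs. The TMM factor was 2.07 in HSA replicate 2 and between 0.765 and 1.17 in the other libraries, so that values of HSA replicate 2 were lowered most by it. A level of 3 counts, the limit set beside a count of 0, corresponded to 0.388 to 0.649 CPM in control and 0.396 to 1.64 CPM in HSA. Intervals for single libraries are 95% Wilson intervals and cover counting error only. They treat each read as an independent molecule, which reads copied by PCR are not, so they can be too narrow.

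MiR-375 was nearly absent from control heart and was present in every HSA library, at levels that fell into a high and a low set of 3 libraries each. In control replicates 1 to 6 it had 3.65, 2.71, 2.51, 6.30, 2.77 and 11.0 CPM. In HSA replicates 1 to 6 it had 24.0, 5347, 5989, 42.9, 13252 and 71.7 CPM. The groups did not overlap, and the closest pair, HSA replicate 1 (17.9 to 32.3 CPM) and control replicate 6 (8.39 to 14.5 CPM), had intervals that did not overlap. The low set, HSA replicates 1, 4 and 6, lay 7.48, 13.4 and 22.3 times above the control median of 3.21 CPM. The high set, HSA replicates 2, 3 and 5, lay 1666, 1865 and 4128 times above it. In HSA replicate 5, miR-375 took 1.55% of all counts of the library. The order of HSA replicates 2 and 3 depended on the scaling, since the deposited CPM were 8262 and 5796.

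The mean of miR-375 over the HSA libraries was 4121 CPM with an SD of 5257 (n = 6), and over the control libraries it was 4.83 CPM with an SD of 3.35 (n = 6). Its log2 fold change was 9.74 with a standard error of 1.76 and an adjusted p of 0.00156 in edgeR's quasi-likelihood test over 225 miRNAs, the second largest rise among those tested. It remained called when any 1 of the 12 libraries was left out, with log2 fold changes from 8.90 to 10.11 and adjusted p from 0.000693 to 0.00685.

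MiR-7 differed from miR-375 in having a steady level in control heart and in being high in 2 HSA libraries instead of 3. In control replicates 1 to 6 it had 232, 171, 183, 234, 191 and 320 CPM. In HSA replicates 1 to 6 it had 307, 9067, 774, 1027, 17519 and 649 CPM. HSA replicates 2 and 5 stood far above the rest, at 42.9 and 82.9 times the control median of 211 CPM, and miR-7 took 1.88% and 2.05% of their counts. The gap between these 2 libraries depended on the scaling, since the deposited CPM were 14009 and 14811. HSA replicates 3, 4 and 6 were between 3.07 and 4.86 times the control median. HSA replicate 1, with an interval of 283 to 333 CPM, could not be told apart from control replicate 6, at 305 to 337 CPM. The groups therefore overlapped by that library, and the other 5 HSA libraries lay above the control range.

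The mean of miR-7 was 4890 CPM with an SD of 7040 (n = 6) over the HSA libraries and 222 CPM with an SD of 54.8 (n = 6) over the control libraries. EdgeR gave a log2 fold change of 4.46 with a standard error of 0.99 and an adjusted p of 0.00453. The log2 fold change was 3.41 without HSA replicate 5, on which its size rested most. The adjusted p rose to between 0.0104 and 0.013, over the threshold of 0.01, when control replicate 1, 2, 3, 4 or 5 was left out, with log2 fold changes from 4.17 to 4.46. A miRNA was called where the adjusted p was under 0.01 and the log2 fold change was 1 or more in size, the limits used in the study. Each library is labelled as a separate sample and the p-values measure the spread among these libraries. The names of control and HSA libraries follow different formats, and a batch that followed them cannot be told apart from the condition.

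Of the 5 miRNAs, 2 passed the filter on low counts and both were called higher in HSA, beside 16.9% of all 225 tested miRNAs, 38 in number. For 1 of these 2, miR-375, every HSA library was above every control library, which held for 12.4% of all tested. The median log2 fold change over all tested miRNAs was 0.28 with TMM and 0.94 with scaling by library total only. On the latter scale the log2 fold changes of miR-375 and miR-7 were 10.47 and 5.28.

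**Figure D1:**
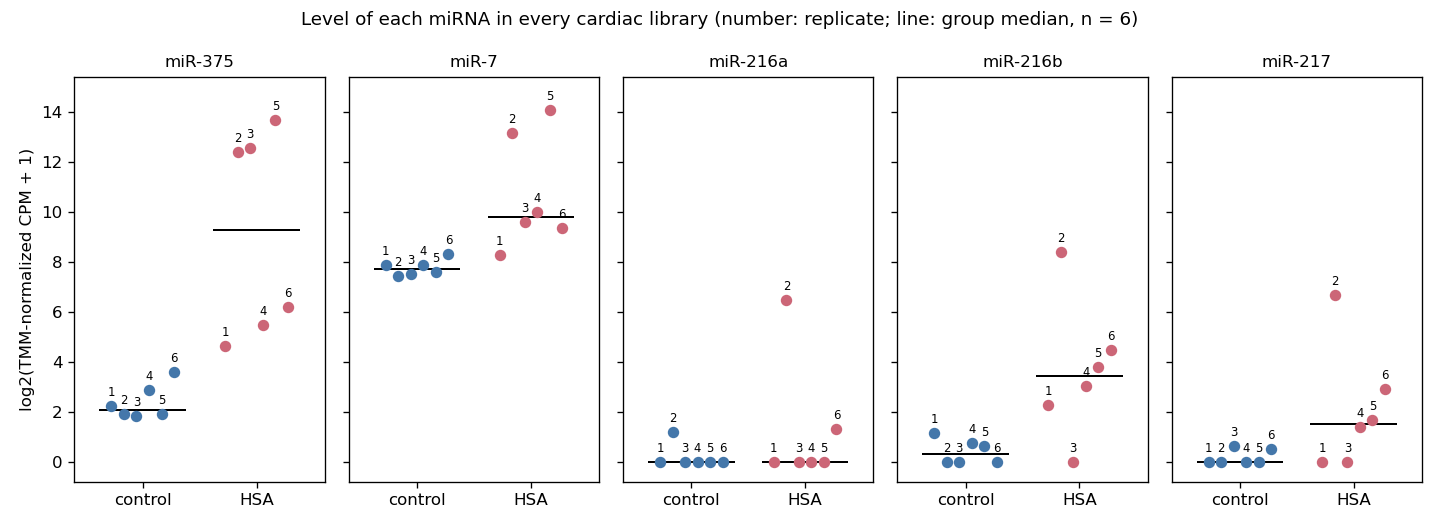
Level of each of the 5 miRNAs in every cardiac library, as log2 of TMM-normalized CPM plus 1 (vertical axis), with control in blue and HSA in red. Numbers are replicates and lines are group medians (n = 6). MiR-375 separates the groups and splits the HSA libraries into 3 high and 3 low, miR-7 is highest in HSA replicates 2 and 5, and miR-216a, miR-216b and miR-217 are highest in HSA replicate 2.

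Set side by side, the 2 miRNAs moved together in some tumors and apart in others. In control, between 29.1 and 73.1 miR-7 counts were found for each miR-375 count. This ratio was 1.70 and 1.32 in HSA replicates 2 and 5, where both miRNAs were high. In HSA replicate 3 it was 0.129, since miR-375 reached 5989 CPM there while miR-7, at 774 CPM, was within the range of HSA replicates 4 and 6. HSA replicates 1, 4 and 6 had ratios of 12.8, 23.9 and 9.05, below those of all control libraries. The ratio compares counts within a library and is not a ratio of molecules, because miRNAs can be captured with unequal efficiency.

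**Figure D2:**
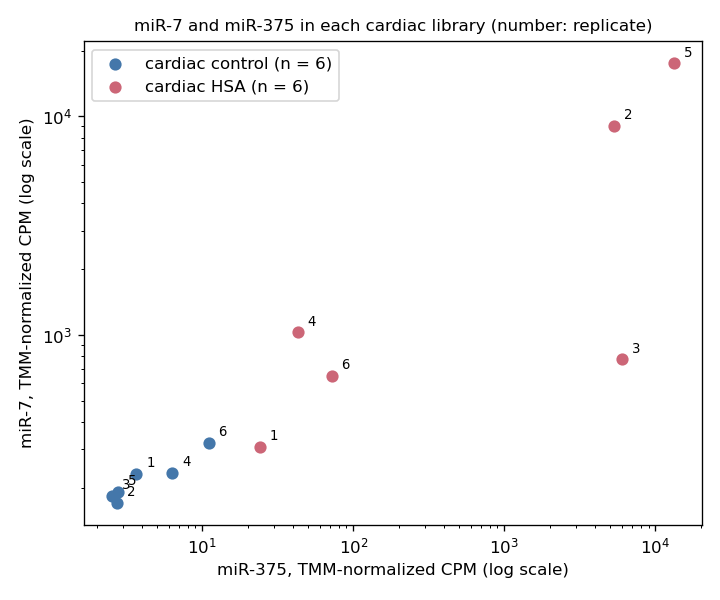
MiR-7 (vertical axis) against miR-375 (horizontal axis) in each of the 12 cardiac libraries, in TMM-normalized CPM on log scales, with control in blue and HSA in red and the replicate number beside each point. HSA replicates 2 and 5 are high in both, and HSA replicate 3 is high in miR-375 only, with 5989 CPM of miR-375 and 774 CPM of miR-7.

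The pancreatic cluster behaved differently again, with most of its counts in a single tumor. MiR-216b had 7, 0, 0, 4, 3 and 0 counts in control replicates 1 to 6 and 7, 2575, 0, 26, 55 and 145 counts in HSA replicates 1 to 6. HSA replicate 2 thus held 91.2% of its counts over the 12 libraries, at 340 CPM (327 to 353). HSA replicates 6, 5, 4 and 1 followed with 21.2, 13.0, 7.11 and 3.82 CPM, all above the highest control library at 1.22 CPM, although the intervals of HSA replicate 1 (1.85 to 7.89) and control replicate 1 (0.590 to 2.51) overlapped. In HSA replicate 3 no count was found, which allows a level of up to 1.06 CPM by the 3-count limit and up to 1.35 CPM by the Wilson interval.

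MiR-217 had a similar order of libraries at lower counts. Control replicates 3 and 6 had 4 and 2 counts and the other 4 control libraries had 0. In HSA replicates 1 to 6 the counts were 0, 768, 0, 6, 9 and 45. HSA replicate 2, at 101 CPM (94.5 to 109), held 92.1% of the total, and HSA replicate 6, at 6.57 CPM (4.91 to 8.79), was the only other library with an interval above that of the highest control library, 0.528 CPM (0.205 to 1.36). HSA replicates 4 and 5 had 1.64 and 2.13 CPM with intervals that overlapped that of control replicate 3.

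MiR-216a was found in 3 libraries. HSA replicate 2 had 667 counts, 97.1% of the total, at 88.1 CPM (81.6 to 95.0). Control replicate 2 and HSA replicate 6 had 10 counts each, at 1.29 and 1.46 CPM, and the remaining 5 control and 4 HSA libraries had 0. In those HSA libraries the 3-count level ran from 0.711 to 1.64 CPM, so that a level as low as that of HSA replicate 6 would be detectable in some of them and not in all.

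Within the cluster, the share of miR-216a was higher in HSA replicate 2 than in HSA replicates 4, 5 and 6. The intervals cover counting error only. MiR-216a made up 16.6% of the 4010 cluster counts of HSA replicate 2 (15.5 to 17.8%) but 5.00% of the 200 counts of HSA replicate 6 (2.74 to 8.96%) and 0 of the 64 counts of HSA replicate 5, with an upper bound of 5.66%. The share of miR-217 was 19.2% (18.0 to 20.4%), 22.5% (17.3 to 28.8%) and 14.1% (7.58 to 24.6%) in the same libraries, with overlapping intervals. HSA replicate 4, with 32 cluster counts, had 0 of miR-216a (upper bound 10.7%) and 18.8% of miR-217 (8.89 to 35.3%). No control library had more than 10 cluster counts.

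MiR-216a, miR-216b and miR-217 did not pass the count filter and were not part of the main test. In the fit without a filter, over 320 miRNAs, the log2 fold change was 7.28 for miR-216b (standard error 1.82, adjusted p = 0.00854 from edgeR), 6.69 for miR-217 (standard error 1.89, adjusted p = 0.0155) and 5.86 for miR-216a (standard error 2.22, adjusted p = 0.0543). MiR-216b was thus the only one of these 3 past the threshold, beside 11.9% of all 320 called higher in HSA. All 3 values rested on HSA replicate 2. Without it, the log2 fold changes were 4.39 for miR-216b (adjusted p = 0.0266), 3.52 for miR-217 (adjusted p = 0.070) and 0.50 for miR-216a (adjusted p = 0.837). MiR-216b also lost its call when a single control library was left out, whichever it was, with adjusted p from 0.0177 to 0.0224 and log2 fold changes of 7.00 to 7.96. DESeq2 gave log2 fold changes of 7.32, 6.90 and 6.03 for miR-216b, miR-217 and miR-216a but no p-value.

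**Figure D3:**
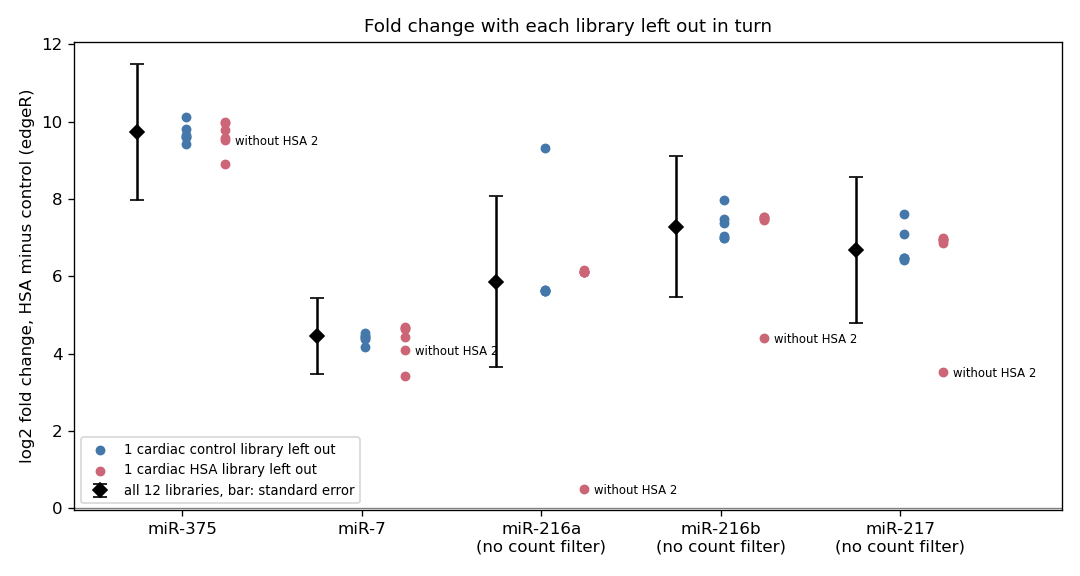
Log2 fold change of HSA over control from edgeR (vertical axis) for each of the 5 miRNAs, with all 12 libraries (black, bar for the standard error) and with 1 control (blue) or 1 HSA library (red) left out. The value of miR-375 stays between 8.90 and 10.11, whereas that of miR-216a falls from 5.86 to 0.50 without HSA replicate 2.

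The tumor libraries also differed in their content of miRNAs typical of other tissues. Among 7 miRNAs of heart and skeletal muscle, miR-133a and miR-133c held the same counts to within 1% in every library and were counted once, which left 6. Their summed level ran from 162756 to 236019 CPM in control, and was 158534, 16052, 773, 32367, 77675 and 201017 CPM in HSA replicates 1 to 6. MiR-208b, made by heart muscle, was at 115 to 251 CPM in control and at 0 in HSA replicate 3. HSA replicate 6 lay within the control range of muscle miRNAs and HSA replicate 1 slightly below it, and these were the 2 lowest HSA libraries in miR-7. HSA replicates 2, 3 and 5, the high set for miR-375, lay further below, and so did HSA replicate 4, which had 42.9 CPM of miR-375. None of the muscle miRNAs was called by edgeR, DESeq2 or limma, and 1, miR-208b, was lower at an unadjusted p under 0.05 in edgeR (median log2 fold change of the 6, -1.29). Endothelial miR-126 was not called either, with a log2 fold change of -0.51 (adjusted p = 0.272).

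In HSA replicate 3, where miR-375 was high and the pancreatic cluster was not found, miR-122, the defining miRNA of liver, had 231287 CPM, against 84.3 to 595 CPM in the other HSA libraries and 6.33 to 59.0 CPM in control. The 3 miRNAs of gut and kidney, miR-192, miR-194 and miR-215, summed to 13869 CPM in that library and to 5424 and 2308 CPM in HSA replicates 5 and 4, against 187 to 309 CPM in control. All 3 were called higher in HSA by edgeR, beside 16.9% of all 225 tested, against 2 by DESeq2 and 1 by limma. Over all miRNAs, DESeq2 called 51 higher and limma 53, against 38 by edgeR. Limma was run on the deposited CPM, scaled by library total without TMM, so its calls are on another scale than those of edgeR. In HSA replicate 2, the library with most counts of the pancreatic cluster, miR-122 was at 288 CPM and the gut and kidney sum at 322 CPM.

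In HSA replicate 5, the library with the highest miR-375 and miR-7, the 7 miRNAs of epithelium summed to 4151 CPM, against 53.7 to 674 CPM in the other HSA libraries and 9.82 to 26.3 CPM in control. MiR-200c, which maintains the epithelial state, reached 1982 CPM there and 9.51 and 12.3 CPM in HSA replicates 2 and 3. HSA replicates 4, 1 and 6, the low set for miR-375, had 264, 36 and 20.2 CPM of it. MiR-203, of skin and other epithelia, had 1656 CPM in HSA replicate 5 and 395 and 189 CPM in HSA replicates 2 and 3, nearly the whole of their epithelial sums of 405 and 215 CPM. In HSA replicates 4, 1 and 6 it had 183, 29.5 and 25 CPM, against 6.46 to 17.7 CPM in control. Of the 7, 3 passed the filter and 2, miR-200c and miR-203, were called higher by edgeR, beside 16.9% of all tested. Limma called 2 of the same 3, and DESeq2, run without that filter, called 5 of 7. MiR-200c and miR-429, at 0.528 to 5.39 and 0 to 2.09 CPM in control, passed the filter only with HSA libraries counted. The 4 miRNAs of white blood cells summed to 704 to 4258 CPM in HSA and 367 to 534 CPM in control, the highest sums were in HSA replicates 4 and 2, and 3 of the 4 were called higher by edgeR (16.9% of all tested), 4 by DESeq2 and 2 by limma. The 4 rows for red blood cells summed to 7635 to 58985 CPM in HSA and 28270 to 40673 CPM in control. EdgeR called 1 of them higher, miR-144 (log2 fold change 1.69), and 1 lower, miR-486-3p (-2.80), beside 38 higher and 16 lower of all 225 tested. MiR-451 and miR-486 were not called, at 0.74 and -1.40. The sum thus mixes rows of opposite direction, and miR-486 alone had 17867 to 31527 CPM in control. No miRNA of any of these lists was at 0 in all 12 libraries. The part of these tissues in the levels of miR-375, miR-7 and the cluster was not tested.

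**Figure D4:**
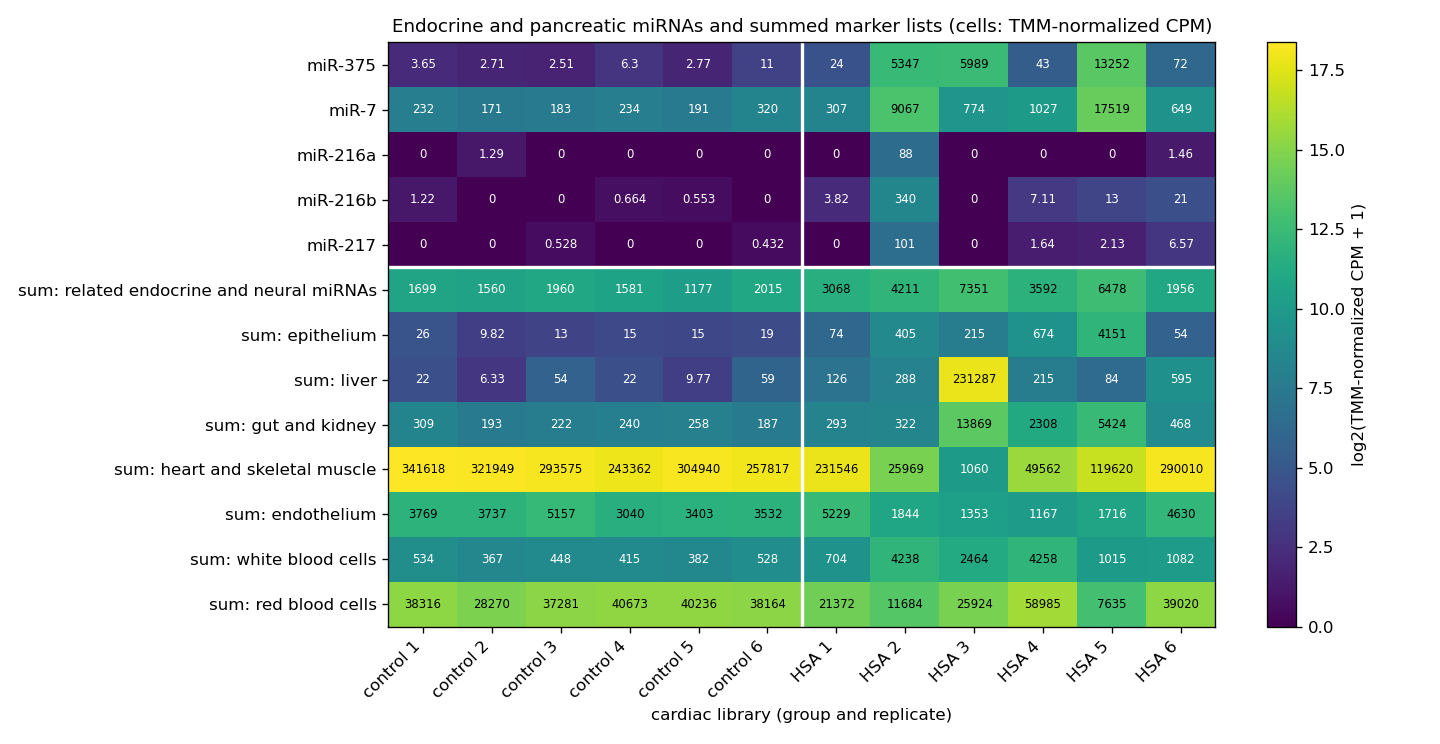
TMM-normalized CPM of the 5 miRNAs (upper rows) and summed levels of 8 lists, of related endocrine and neural miRNAs and of other tissues (lower rows; the muscle sum here counts both miR-133a and miR-133c), in the 12 cardiac libraries (columns), with color for log2 of CPM plus 1. HSA replicate 2 carries all 5 miRNAs, and so does HSA replicate 6 at lower levels. HSA replicate 3 is high in miR-375 beside 231287 CPM of liver miR-122. HSA replicate 5 is highest in miR-375 and miR-7, with 13.0 CPM of miR-216b, beside the highest epithelial sum of 4151 CPM.

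Other miRNAs with a place in endocrine or nerve cells were followed through a list of 13. All 13 had a row, 8 passed the count filter, and 5 of these were called higher in HSA by edgeR, beside 16.9% of all tested, and 3 were not called. None of the 8 was lower, even at an unadjusted p under 0.05, and DESeq2 and limma called 4 and 5 of the list higher and 0 lower. The median log2 fold change of the 8 was 1.78, beside 0.28 over all tested. MiR-182, miR-183 and miR-124 were as low as 0.553, 0.517 and 0.184 CPM in a control library. They passed the filter only with HSA libraries counted, and miRNAs so low in control can hardly be called lower. The list was also chosen with earlier results known, so its counts and median are a description only. MiR-182 and miR-183, which share a cluster active in sensory and neuroendocrine cells, had log2 fold changes of 5.31 (adjusted p = 0.00235) and 5.06 (adjusted p = 0.00476). MiR-182 had 0.553 to 6.97 CPM in control and 35.5, 68.7, 48.9, 44.8, 672 and 14.0 CPM in HSA replicates 1 to 6, so its peak was in HSA replicate 5. MiR-129, abundant in brain and endocrine cells, was called with a log2 fold change of 3.39 (adjusted p = 0.00534) and was also highest there, at 187 CPM.

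MiR-148a, a miRNA common to pancreatic acinar cells and liver, had a log2 fold change of 1.40 (adjusted p = 0.00866) and its highest level in HSA replicate 3, 6756 CPM, followed by 3846 CPM in HSA replicate 5 and 3243 CPM in HSA replicate 2. MiR-204, found in islet, eye and kidney, had one of 1.97 (adjusted p = 0.00578) and peaked in HSA replicate 4, at 1003 CPM. The neural miR-9 and miR-124 were not called, with log2 fold changes of 0.55 (adjusted p = 0.244) and 1.59 (adjusted p = 0.238). MiR-184 was not called (log2 fold change 1.33, adjusted p = 0.338) and had 746 CPM in HSA replicate 1, the lowest library for miR-375 and miR-7. MiR-802, known from liver and pancreas, did not pass the filter. It was at 0 in all control libraries and in HSA replicates 1 and 2, and had 24.3 CPM in HSA replicate 3 and at most 0.948 CPM in the others.

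By the measure used, the profile of miR-375 over the 6 HSA libraries had no near match among the tested miRNAs. Likeness was measured as the root mean square difference of log2 levels after each profile was centered on its own mean, and a flat profile lay 3.77 from miR-375. Profiles were not scaled to a common range, so a difference in range adds to the distance. The 5 nearest were miR-135a-5p at 2.10, miR-380 at 2.30, miR-203 at 2.41, miR-485 at 2.46 and miR-7 at 2.52. All 5 were high in HSA replicates 2 and 5, and none had in HSA replicate 3 the level it had in HSA replicate 2. MiR-135a-5p, the nearest, had 255, 51.8 and 504 CPM in HSA replicates 2, 3 and 5 and 4.67 to 37.2 CPM in the other 3.

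MiR-7 had closer matches, against 2.12 for a flat profile. The nearest was miR-329b at 0.74, followed by miR-485 at 0.85, miR-135a-5p at 0.89, miR-411 at 0.90 and miR-380 at 0.96. MiR-329b had 54.5 and 70.4 CPM in HSA replicates 2 and 5 and 0.704 to 1.64 CPM in the other HSA libraries, which were below the 6.59 to 12.9 CPM of control. MiR-411 had 127 and 218 CPM in the same 2 libraries and 21.6 to 31.3 CPM in the others, with 45 to 87.1 CPM in control. Unlike miR-7, then, these 2 lay below control in the 4 tumors where they were low. MiR-375 itself was at rank 191 in likeness to miR-7, at a distance of 2.52. Its log2 SD over the HSA libraries was 4.13, against 2.32 for miR-7. That difference in range enters the distance, so the rank does not mean that the 2 were high in unlike libraries. These distances rest on 6 libraries and describe them without a test.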

How the data were processed

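The authors trimmed reads of the cardiac libraries with Cutadapt v4.1, discarded reads under 17 nt, aligned the rest to CanFam3.1 with Bowtie v1.3.1 and counted them on miRBase v22.1 miRNAs with HTSeq v2.0.2. The authors deposited raw counts in 517 rows, each a mature miRNA with its precursor, and a second table of CPM made from them. Recomputed CPM differed from the deposited CPM by at most 0.00499. Both tables held the 12 cardiac libraries.

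The row with the highest total was kept for each of 453 mature miRNAs, 48 of which had several rows. The labels name another library kit for these samples than the methods do. Libraries were grouped by title. Control and HSA libraries came from different dogs, and nothing states that same-numbered libraries were matched in another way. Counts were tested in R 4.3.3 with edgeR 4.0.16 (TMM, filterByExpr, quasi-likelihood F test), and p-values were adjusted by Benjamini-Hochberg over all tested miRNAs. Standard errors were obtained by dividing log2 fold changes by the root of the F statistic. DESeq2 1.42.0 and limma 3.58.1 were alternatives, beside other scalings and filters, a robust dispersion, all 517 rows, a replicate block and each library left out. Limma was run on log2 of the deposited CPM plus 1, which were scaled by library total without TMM. Profiles were compared on log2 of TMM CPM plus 1. The tests were checked on simulated counts, with 60 miRNAs changed by a log2 fold change of 2 in all HSA libraries alike. This check does not cover a miRNA that is high in only some HSA libraries.

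The members, marker lists and tests were chosen with earlier results of these data known. Text names the 5 members, listed miRNAs with the highest HSA level or largest difference, and the 5 nearest profiles. MiR-802, miR-184, miR-9, miR-124 and miR-208b were named, and miR-133a and miR-133c counted once, after their values were seen. Mature sequences were not used here.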

Additional observations from a re-analysis of the deposited data

Results flagged for a closer look

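Over the 10 combinations of miRNA and group, 2 had a library far from the other 5 on the log2 scale, and both concerned miR-216a. In HSA, the gap between replicate 2, at 88.1 CPM, and the next library was 0.799 of the whole range. In control, replicate 2, with 10 counts and 1.29 CPM, was the one library above 0, so that its gap was the whole range, a ratio of 1. Both passed Dixon's 95% critical value for 6 libraries. Chance passes it in about 1 of 20 groups of continuous values, but 5 of the 6 control and 4 of the 6 HSA libraries were at 0. With 5 libraries at 0 the ratio is 1 whatever the count of the other, so no such rate applies here.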

How the results depend on the processing

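MiR-375 kept its direction and call in the 12 fits that left out a library (8.90 to 10.11) and in 9 of 10 other alternatives, and miR-7 in 7 of 12 (3.41 to 4.69 over all 12) and 9 of 10. The exception for both among the 10 was the replicate block, with log2 fold changes of 7.03 for miR-375 (adjusted p = 0.0601) and 2.74 for miR-7 (adjusted p = 0.0662) from edgeR. That fit called 11 of the 225 miRNAs, against 54. Nothing states that the numbers pair the libraries. Deviations of same-numbered libraries correlated by -0.283 to 0.0773 and no control library correlated best with its own number, but so few correlations cannot exclude a pairing. Over the alternatives that kept all libraries and had no block, from 52 to 74 miRNAs were called, and from 21 to 63 with 1 library left out, the lowest without control replicate 5. The cause of these changes was not tested. Scaling by library total gave 64 higher and 5 lower calls, and limma, also run without TMM, 53 and 5, against 38 and 16. Without a count filter, miR-217 was past the threshold with scaling by library total (7.91, adjusted p = 0.00958) and without HSA replicate 3 (6.96). With a pseudocount of 0.5, 5 of 5 nearest profiles of miR-375 and 4 of 5 of miR-7 were shared. Depth limits the cluster, with 10 counts or fewer behind each of its control values.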
